A study of Mus musculus with 12 samples.

Results

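The genes described here are the selectins and leukocyte adhesion molecules of the mouse brain at 14 d post-stroke. They are 9 genes chosen by name, out of 49315 in the table: *Selp*, *Sele*, *Selplg*, *Icam1*, *Icam2*, *Vcam1*, *Madcam1*, *Alcam* and *Mcam*. All 9 were found by their Ensembl identifiers. *Selplg* was taken as the leukocyte-side gene and the other 8 as vessel-side genes. Bulk RNA-sequencing, which reads the summed RNA of all cells in a piece of tissue, was carried out on the brains of 12 male mice, 6 given WT marrow and 6 given *Tet2*-KO marrow. All recipients were CD45.1 Pep Boy mice with intact *Tet2*, a C57Bl6 congenic strain, aged 8 to 12 weeks at transplantation and irradiated with the head shielded. In the WT group 10% of the transplanted cells were CD45.2 *Tet2*+/+, in the *Tet2*-KO group 10% were CD45.2 *Tet2*-/-, and in both groups the remaining 90% were CD45.1 *Tet2*+/+. Stroke was induced 8 to 10 weeks later in both groups by 30 min of middle cerebral artery occlusion. The recipients' own cells, vessels included, carried intact *Tet2* in both groups, and the deletion was present only in cells that descended from the CD45.2 donor marrow. The treatment entry of the labels names control cells for every mouse, and the groups used here come from the titles and the genotype entries.

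Leukocytes leave the blood in steps. Selectins on activated endothelium catch passing cells, which then roll. P-selectin is stored ready-made in endothelial granules and in platelets, whereas E-selectin is newly made by endothelium under inflammatory cytokines, and both bind PSGL-1, the product of *Selplg*, once that protein carries the right sugars. Firm arrest follows, when leukocyte integrins bind ICAM-1, ICAM-2 and VCAM-1 on the vessel wall. In the brain *Selplg* is also a gene of resident microglia, so its transcript does not mark blood leukocytes alone, and *Icam1* and *Vcam1* can be made by glia and leukocytes as well as by endothelium.

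Among the vessel-side genes 3 stood apart from the rest, *Selp*, *Sele* and *Icam1*, in that no *Tet2*-KO mouse reached the level of any WT mouse, a pattern seen for 0.641% of all 20290 genes tested. *Sele* is not among those 20290 genes, because it failed the filter on low counts, and *Selp* passed that filter only through its WT levels. The RefSeq table held a promoter for 6 of the 9 genes, and the 250 bases before the transcription start are shown for these 3 because their transcripts were lower together (GRCm38.p6, 5′ to 3′ on the strand of the gene). Capitals mark matches to 3 short motifs chosen after the sequences had been seen: GGNNNTTCC, a loose form of the NF-κB site, TGANTCA, a loose form of the AP-1 site, both searched on both strands, and TATAAA, the TATA box, searched on the gene's strand. The *Selp* window is chr1:164115014-164115263 on the plus strand, that of *Sele* is chr1:164047984-164048233 on the plus strand, and that of *Icam1* is chr9:21015690-21015939 on the plus strand.
Selp: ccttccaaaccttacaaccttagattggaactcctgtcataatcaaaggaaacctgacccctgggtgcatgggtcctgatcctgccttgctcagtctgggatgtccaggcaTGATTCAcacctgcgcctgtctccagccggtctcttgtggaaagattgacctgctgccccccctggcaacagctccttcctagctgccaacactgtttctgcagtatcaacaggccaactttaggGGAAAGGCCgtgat
Sele: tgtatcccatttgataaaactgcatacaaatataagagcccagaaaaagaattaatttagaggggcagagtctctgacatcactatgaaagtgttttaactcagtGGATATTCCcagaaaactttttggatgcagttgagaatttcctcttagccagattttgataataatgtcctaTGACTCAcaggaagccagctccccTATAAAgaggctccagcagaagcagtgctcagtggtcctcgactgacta
Icam1: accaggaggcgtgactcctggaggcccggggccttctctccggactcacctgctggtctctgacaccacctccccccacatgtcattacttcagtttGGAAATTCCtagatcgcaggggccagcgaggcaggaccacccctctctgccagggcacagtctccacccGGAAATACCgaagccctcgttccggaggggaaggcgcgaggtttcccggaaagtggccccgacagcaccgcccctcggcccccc

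Counted back from the transcription start, the *Selp* window held TGANTCA from -139, with the letters TGATTCA, and GGNNNTTCC on the opposite strand from -14. In *Sele* the GGNNNTTCC match began at -145, TGANTCA at -73, with the letters TGACTCA, and TATAAA at -49. *Icam1* held GGNNNTTCC at -153, where the letters match on both strands, and on the opposite strand at -84. Of 32851 promoters of the same length, 15.7% held GGNNNTTCC, 6.75% held TGANTCA and 7.59% held TATAAA. *Madcam1* held 2 GGNNNTTCC matches, whereas *Alcam* and *Mcam* held no match to any of the 3 motifs in this window. The windows follow RefSeq starts, whereas the gene coordinates given below are those of GENCODE M21. By those, the *Alcam* window (chr16:52453082-52453331) lies inside the gene, the *Mcam* window (chr9:44134408-44134657) overlaps its start, and the *Icam1* window ends short of its start. The lack of a match in *Alcam* and *Mcam* therefore holds for these windows only. The marked stretches are matches of letters, and binding of a factor was not measured.

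The libraries held 12000261 to 15340787 counts with WT marrow and 12625047 to 21049763 counts with *Tet2*-KO marrow. Levels are given as CPM, the reads of a gene scaled to the size of its library with TMM factors. *Tet2* itself, the targeted gene, was at 131.7 CPM with WT marrow and 130.9 CPM with *Tet2*-KO marrow (log2 change -0.01, edgeR adjusted p = 0.934), in RNA of the whole brain. All 10 endothelial markers and all 6 neuronal markers were detected, with summed levels of 342.7 and 3485 CPM in the WT group. Within each group 1 or more mice stood apart. WT replicate 2 had a summed leukocyte marker level of 1014 CPM, against 524.2 to 632.9 CPM in the other WT mice, and *Tet2*-KO replicates 4 and 5 reached 465.1 and 636.3 CPM, against 148.3 to 302.2 CPM in the other *Tet2*-KO mice. Leaving out single mice moved the number of genes called across the whole table, so values without them are given with the results.

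Per kilobase of exon, the 9 genes spanned a wide range of abundance. The 12-mouse mean was 25.9 CPM per kilobase for *Alcam*, which encodes the CD6 ligand ALCAM and is also made by neurons, and 16.5 for *Selplg*. *Mcam*, a gene of endothelium, pericytes and smooth muscle, followed at 7.93, *Vcam1* at 5.30 and *Icam1* at 3.08. *Icam2*, a constitutive endothelial gene, was at 0.787. Each of these genes was above the next in 12 of 12 mice, and *Icam2* was above *Selp* in 12 of 12. Across mice the ranges of neighbours nevertheless overlapped between *Mcam* and *Vcam1* and between *Vcam1* and *Icam1* in both groups, between *Alcam* and *Selplg* and between *Icam2* and *Selp* in WT mice, and between *Icam1* and *Icam2* in *Tet2*-KO mice. The lowest 3 genes, *Selp* at 0.296, *Madcam1* at 0.223 and *Sele* at 0.206, did not keep an order, since *Selp* was above *Madcam1* in 4 of 12 mice and *Madcam1* above *Sele* in 9 of 12.

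**Figure D1:**
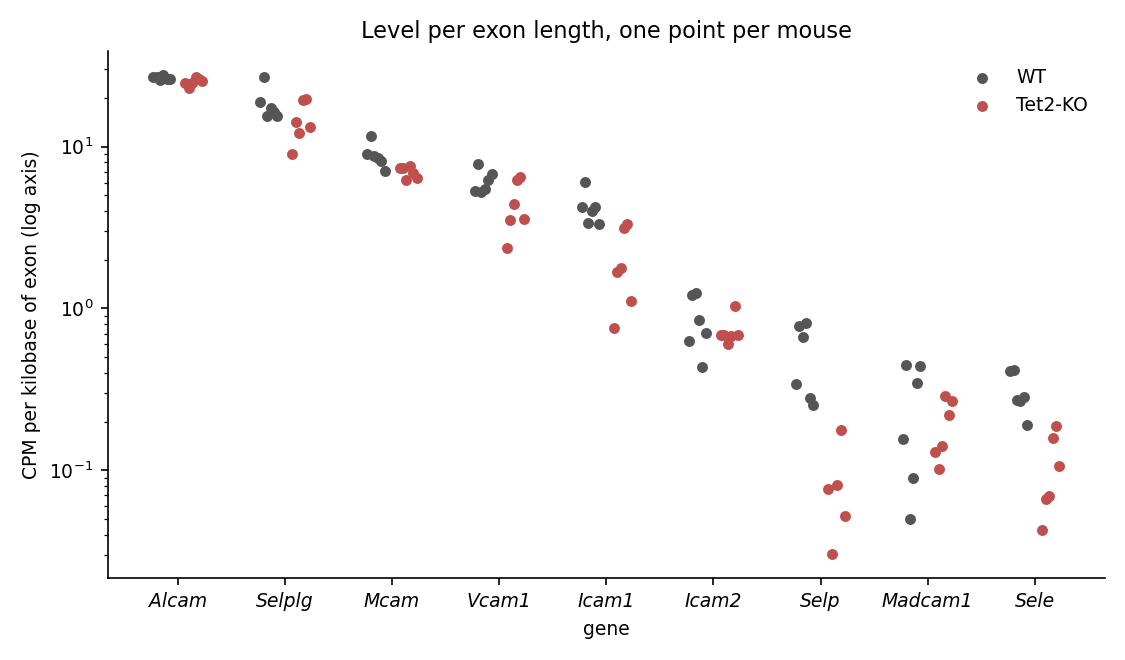
Level of each of the 9 genes in CPM per kilobase of exon on a log axis, with 1 point per mouse (grey, WT marrow; red, *Tet2*-KO marrow) and genes ordered by the 12-mouse mean from *Alcam* (25.9) to *Sele* (0.206). *Tet2*-KO replicate 1 had 0 reads of *Selp* and has no point there on the log axis.

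*Selp*, encoding P-selectin, had the largest difference of the 9 genes. Its WT level was 1.11 CPM at the lowest, 2.22 at the median and 3.57 at the highest mouse. With *Tet2*-KO marrow the lowest mouse was at 0, the median 0.286 and the highest 0.785 CPM. The groups did not overlap, and the highest *Tet2*-KO mouse was replicate 5, the mouse with the highest leukocyte marker level of its group. The means were 2.30 ± 1.14 CPM (SD, n = 6) and 0.308 ± 0.269 CPM (SD, n = 6), 7.46-fold apart, and the fitted log2 fold change was -2.92 (SE 0.48, 95% interval -3.96 to -1.89). The depth behind this difference was small, 193 reads over the 6 WT mice (14 to 55 each) and 29 over the 6 *Tet2*-KO mice (0 to 10 each). The mouse without a read, *Tet2*-KO replicate 1, could hold up to 0.186 CPM by the limit of 3 counts, which covers counting error only. In bulk tissue, fewer cells of a type and less RNA per cell cannot be told apart, here and in all values that follow. *Selp* ranked 7th by p among the 20290 genes tested, and its edgeR adjusted p of 0.0752 missed the threshold of 0.05. The DESeq2 Wald test gave an adjusted p of 2.52e-06 and limma-voom 0.0167. With *Tet2*-KO replicate 5 left out the edgeR adjusted p was 0.00474 (log2 fold change -3.33), and without WT replicate 6 it was 0.0351 (-3.06).

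*Sele*, encoding E-selectin, failed the filter on low counts and has no value in the main edgeR test. Its WT levels were 0.555, 0.807 and 1.22 CPM at the lowest, median and highest mouse, and its *Tet2*-KO levels 0.124, 0.255 and 0.549 CPM. Here too the groups did not overlap, though the highest *Tet2*-KO mouse, replicate 5, came close to the lowest WT mouse, replicate 6. The reads numbered 73 with WT marrow (7 to 17 per mouse) and 29 with *Tet2*-KO marrow (2 to 9 per mouse). The mean log2 difference was -1.35 on the log2(CPM + 0.1) scale, with an exact two-sided permutation p of 0.00216 (n = 6 per group), the smallest that 924 regroupings allow. Fitted without the filter, edgeR gave -1.55 with an adjusted p of 0.0579, and DESeq2 gave -1.57 with an adjusted p of 0.0121.

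*Sele* and *Selp* lie near each other on chromosome 1 in GRCm38, *Sele* at chr1:164048234-164057677 and *Selp* at chr1:164115264-164150026, both on the plus strand within 101793 bases. On either side of this stretch, 3 protein-coding genes within 60000 bases, a window chosen after the values were seen, had smaller log2 fold changes than *Selp*. *Mettl18* had a log2 fold change of 0.15, *BC055324* of -0.02 and *F5*, the coagulation factor V gene, of -0.29 with an unadjusted edgeR p of 0.0591. Exons of *Selp* share 186 and 438 bases with the antisense genes *Gm16587* and *Gm16548*, and the strand setting of the counting is not given in the sources used here. These antisense genes held 11 and 6 reads over the WT mice and 4 and 2 over the *Tet2*-KO mice.

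*Icam1*, at chr9:21015985-21028817 on the plus strand, encodes the endothelial ligand of the leukocyte integrin LFA-1. It was at 14.6, 17.96 and 26.4 CPM in the lowest, median and highest WT mouse, and at 3.28, 7.51 and 14.5 CPM in the corresponding *Tet2*-KO mice. The groups did not overlap, although the highest *Tet2*-KO mice, replicates 4 and 5, came within 1 CPM of the lowest WT mouse. The means were 18.3 ± 4.30 and 8.56 ± 4.60 CPM (SD, n = 6 each), and the log2 fold change was -1.10 (SE 0.33, 95% interval -1.82 to -0.38). The edgeR adjusted p was 0.124. It was 0.0401 with DESeq2, 0.0201 with limma-voom and 0.0294 in edgeR without *Tet2*-KO replicate 5. *Icam1* shares 511 exon bases with the antisense gene *Gm47079*, which held 289 reads over the WT mice and 433 over the *Tet2*-KO mice, against 1495 and 832 reads of *Icam1*.

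*Vcam1*, at chr3:116109949-116129688 on the minus strand, encodes the ligand of the integrin VLA-4. Its levels were 46.8, 51.9 and 69.6 CPM in the lowest, median and highest WT mouse and 20.9, 35.5 and 57.8 CPM in the *Tet2*-KO group. The level was below the whole WT range in 4 of the 6 *Tet2*-KO mice, and replicates 4 and 5 were inside the WT range. The log2 fold change was -0.47 (SE 0.23, 95% interval -0.98 to 0.04) with an edgeR adjusted p of 0.250. *Vcam1* missed the threshold in DESeq2 and limma-voom as well, with adjusted p of 0.151 and 0.105.

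*Mcam*, at chr9:44134469-44142727 on the plus strand, encodes CD146. It was at 23.7, 29.0 and 39.2 CPM in the lowest, median and highest WT mouse and at 20.9, 23.95 and 25.5 CPM in the *Tet2*-KO group. All 6 *Tet2*-KO mice were below the WT mean, but 3 of them overlapped the WT range. The log2 fold change was -0.34 (SE 0.10, 95% interval -0.55 to -0.13), and the adjusted p was 0.121 with edgeR, 0.0458 with DESeq2 and 0.0491 with limma-voom.

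Differences in the remaining vessel-side genes were smaller. *Alcam* (chr16:52248996-52454074, minus strand) was at 183.6 to 198.1 CPM with WT marrow and 163.4 to 192.3 CPM with *Tet2*-KO marrow. Its log2 fold change of -0.08 (95% interval -0.18 to 0.02) had an edgeR adjusted p of 0.295. *Icam2* (chr11:106377656-106388075, minus strand) ranged from 0.824 to 2.37 CPM in WT and from 1.14 to 1.96 CPM in *Tet2*-KO mice. It rested on 133 and 132 reads, and its interval of -0.75 to 0.26 around a log2 fold change of -0.24 left a decrease or an increase possible (edgeR adjusted p = 0.576). *Madcam1* (chr10:79664559-79668537, plus strand), the gut and lymphoid address protein, held 29 and 26 reads in the groups and failed the filter. A difference in it was not detectable at this depth (exact two-sided permutation p = 0.706, n = 6 per group, log2 difference -0.16).

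**Figure D2:**
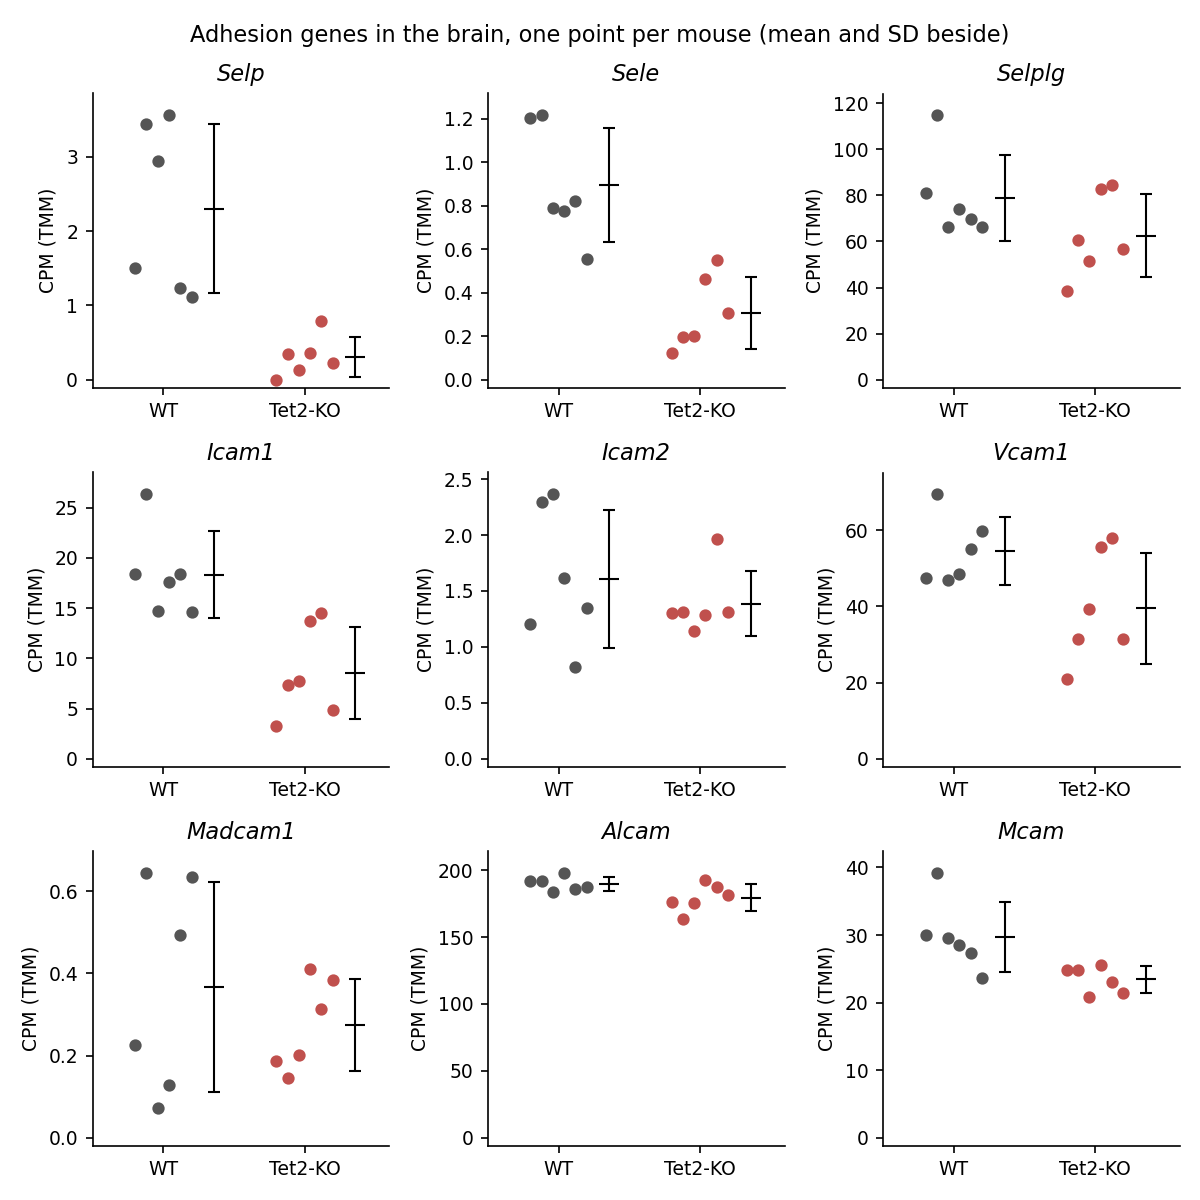
Level of each gene in CPM after TMM scaling, with 1 point per mouse in replicate order and the mean with SD beside each group (n = 6). The *Tet2*-KO points lie below all WT points for *Selp*, *Sele* and *Icam1*, and the groups overlap in the other 6 panels.

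On the leukocyte side, *Selplg* (chr5:113818536-113832644, minus strand) was abundant in every brain. Its levels were 66.2, 71.95 and 115 CPM in the lowest, median and highest WT mouse and 38.4, 58.7 and 84.5 CPM in the *Tet2*-KO group. The groups overlapped, since *Tet2*-KO replicates 4 and 5 were above 5 of the 6 WT mice and the other 4 were below all of them. The log2 fold change was -0.33 (SE 0.21, 95% interval -0.79 to 0.12), and the edgeR adjusted p was 0.355. Without WT replicate 2, whose level was the highest, the log2 fold change was -0.20.

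Across the whole family the edgeR test called 0 of the 7 genes that passed the filter, where it called 5 of 20290 genes, all lower in *Tet2*-KO mice (0.0246%). At an unadjusted p under 0.05, edgeR had 3 of the 7, *Selp*, *Icam1* and *Mcam*, all lower, where 12.2% of all genes tested were lower and 10.8% higher by this rule. DESeq2 called 4 of the 8 to which it gave an adjusted p (*Madcam1* had none), *Selp*, *Sele*, *Icam1* and *Mcam*, all lower. Of the 21152 genes with an adjusted p it called 3.32% as lower. With limma-voom 3 of 7 were called, all lower, beside 6.38% of all genes tested called as lower. Among the 7 tested genes, *Selp* and *Icam1* did not overlap between the groups, a pattern that 0.641% of all genes tested had in this direction. *Selp* passed the filter only through its WT levels, as 6 WT mice and 1 *Tet2*-KO mouse reached the filter's level of 0.727 CPM. The median log2 fold change of the 7 was -0.34, where that of all genes tested was 0.01.

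The leukocyte-side gene was then set against each vessel-side gene within the same mouse, as a ratio of reads that needs no scaling between libraries. Reads of *Selplg* per read of *Selp* ranged from 20.6 to 57.6 in WT mice and from 103 to 1240 in *Tet2*-KO mice, where the 1240 comes from the mouse with 0 *Selp* reads and is set by the added 0.5 counts. No *Tet2*-KO mouse overlapped the WT group. The geometric mean rose from 36.9 to 258, a log2 change of 2.81 (exact two-sided permutation p = 0.00216, adjusted over the 6 ratios p = 0.00649, n = 6 per group). Ratios were formed only for genes that passed the filter, so *Sele* has none, and *Selp* passed only through its WT levels. Levels of *Selp*, like those of *Icam1* below, already did not overlap between the groups, so the p-values of these ratios are not separate support.

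For *Icam1* the ratio lay within a narrow band in WT mice, 3.79 to 4.52, and between 5.81 and 11.6 in *Tet2*-KO mice. All 6 *Tet2*-KO mice were above all WT mice, and the geometric mean rose from 4.29 to 7.99 (log2 change 0.90, exact two-sided permutation p = 0.00216, adjusted p = 0.00649, n = 6 per group). *Selp* and *Icam1* were thus lower relative to *Selplg*, and a ratio shows this unequal difference without showing that *Selplg* was constant. The other 4 ratios overlapped between the groups. The log2 changes were 0.18 for *Vcam1*, -0.03 for *Mcam*, -0.21 for *Icam2* and -0.27 for *Alcam*, and their exact permutation p adjusted over the 6 ratios lay between 0.331 and 0.898. With single mice left out, the log2 changes ran from 0.107 to 0.242 for *Vcam1*, from -0.378 to -0.0684 for *Icam2* and from -0.359 to -0.149 for *Alcam*. For *Mcam* they ran from -0.13 to 0.119, through 0.

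**Figure D3:**
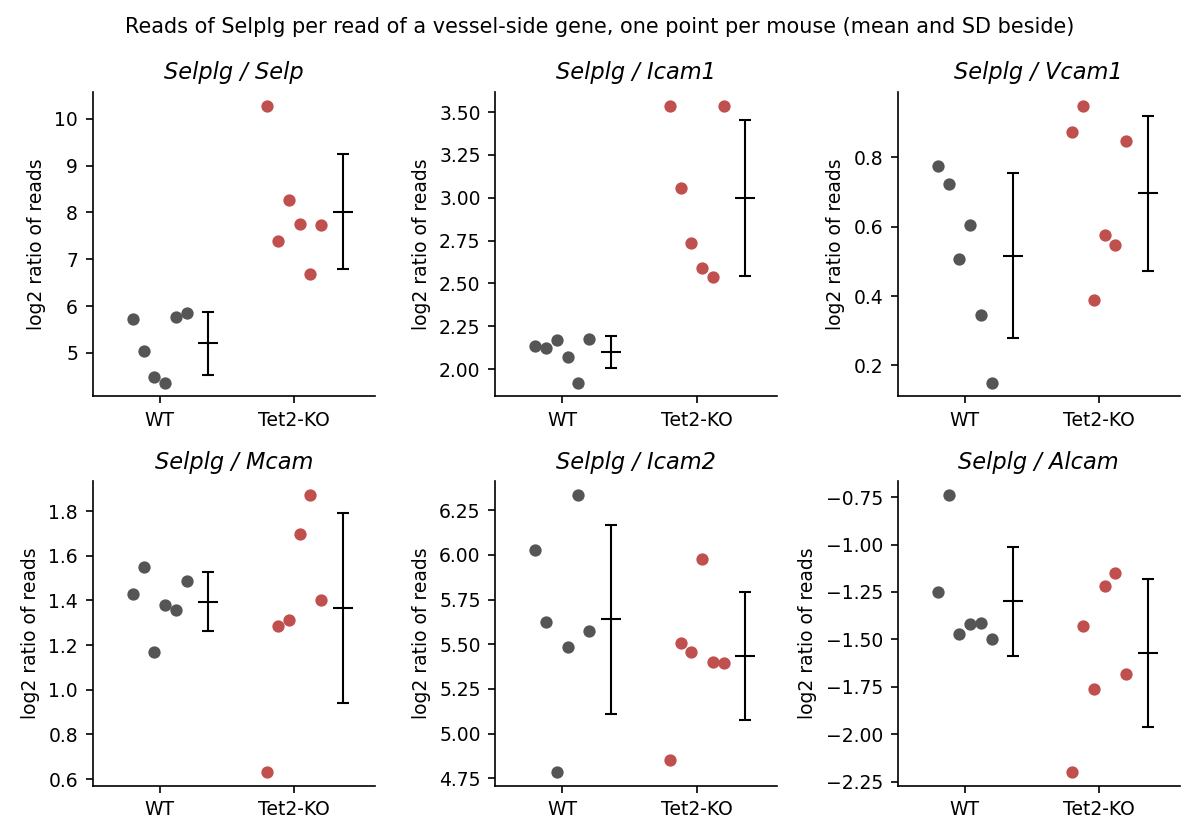
Log2 ratio of *Selplg* reads to the reads of each of 6 vessel-side genes (0.5 counts added to both), with 1 point per mouse and the mean with SD beside each group (n = 6); the y axes differ between panels. All *Tet2*-KO points are above all WT points for *Selp* and *Icam1*, and the groups overlap in the other 4 panels.

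Several lists of cell type markers also differed between the groups, not all in the same direction, and their part in the results was not tested. All 7 leukocyte markers had a negative log2 fold change (median -0.96). Their summed level was 524.2 to 1014 CPM in WT and 148.3 to 636.3 CPM in *Tet2*-KO mice. This is marker RNA of the whole brain, which does not separate blood leukocytes from resident cells. The 10 endothelial markers differed less, with a median of -0.12 and summed levels of 323.9 to 371.7 CPM in WT and 306.7 to 341.8 CPM in *Tet2*-KO mice. At an unadjusted edgeR p under 0.05, 4 of the 10 were lower and 0 higher, beside 12.2% and 10.8% of all genes tested. After adjustment edgeR called 0 of the 10, and DESeq2 called 1, as lower, beside 3.32% of the genes it gave an adjusted p. *Selp* reads per 1000 endothelial marker reads were 6.59 ± 3.00 (SD, n = 6) in WT and 0.938 ± 0.786 (SD, n = 6) in *Tet2*-KO mice, without overlap.

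*Sele* went from 2.61 ± 0.75 to 0.937 ± 0.475 reads per 1000 endothelial marker reads (SD, n = 6 each), also without overlap. *Icam1* was at 53.3 ± 10.5 and 26.1 ± 13.0 on the same measure (SD, n = 6 each), with 5 of 6 *Tet2*-KO mice below all WT mice. Set against leukocyte markers instead, *Icam1* was at 28.8 ± 2.54 and 23.9 ± 3.40 reads per 1000 (SD, n = 6 each), again with 5 of 6 *Tet2*-KO mice below all WT mice. This measure was added after the data had been seen, and the other vessel-side genes differed on it. The ratio of *Tet2*-KO to WT means per leukocyte marker read was 0.209 for *Selp*, 0.622 for *Sele* and 0.830 for *Icam1*, but 1.36 for *Vcam1*, 1.75 for *Mcam*, 1.82 for *Icam2* and 2.01 for *Alcam*. Per endothelial marker read, the planned measure, it was instead 0.762 for *Vcam1*, 0.84 for *Mcam* and 0.921 for *Icam2*. Per pericyte and smooth muscle marker read, also planned, *Mcam* was at 0.937. For *Alcam*, 555 ± 29.8 and 556 ± 22.9 reads per 1000 endothelial marker reads were counted in the groups.

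*Selplg* differed in the other direction per leukocyte marker read. It was at 124 ± 5.30 reads per 1000 leukocyte marker reads in WT and 195 ± 44.5 in *Tet2*-KO mice (SD, n = 6 each), with all 6 *Tet2*-KO mice above the WT group. Per 1000 reads of the 7 homeostatic microglia markers, also a measure added later, it was at 135 ± 11.1 and 142 ± 9.10 (SD, n = 6 each), and 5 of 6 *Tet2*-KO mice lay inside the WT range. P-selectin is also a platelet protein, and the summed platelet markers were at 10.1 to 13.9 CPM in WT and 11.5 to 13.0 CPM in *Tet2*-KO mice, although only 4 of the 8 passed the filter and 4 were under 1 CPM in every mouse. The 4 tested platelet markers had a median log2 fold change of -0.03, with *Pf4* at -0.81, *Gp1ba* at -0.05, *Itga2b* at -0.0046 and *Gp1bb* at 0.32 (edgeR adjusted p between 0.139 and 0.991). *Gp1bb* was the largest part of the sum, at a mean of 5.80 of 11.6 CPM in WT and 7.20 of 12.3 CPM in *Tet2*-KO mice.

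The other marker lists are given by their direction. All 7 monocyte and macrophage markers had a negative log2 fold change (median -1.77), as did 4 of 4 tested T cell markers (-0.92). Of these, *Cd3e* passed the filter through its WT levels, which were at least 1.11 CPM. Its *Tet2*-KO median of 0.558 CPM was below the filter's level of 0.727 CPM. Of 7 neutrophil markers only 3 passed the filter, all negative (median -2.16), of which edgeR called 2. One of them, *S100a9*, passed only through its WT levels, with at most 0.628 CPM in *Tet2*-KO mice. Those that failed held similar reads in WT and *Tet2*-KO mice, *Retnlg* 46 and 47, *Ngp* 61 and 58 and *Camp* 17 and 15, or almost none (*Ly6g*, 2 and 0). The only B cell marker tested, *Cd79b*, was at -1.28, and its *Tet2*-KO median of 0.459 CPM was also below the filter's level. All 6 fibroblast markers were negative too, with a median of -1.33, and pericyte and smooth muscle markers had a median of -0.26, homeostatic microglia -0.17, astrocytes -0.12 and choroid plexus -0.22. The 6 neuronal markers were positive, with a median of 0.26. Their part in the values of the adhesion genes was not tested.

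The leukocyte partners of these molecules form a list of 12 genes, of which all passed the filter. At an unadjusted edgeR p under 0.05, 10 of the 12 were lower and 0 higher, with a median log2 fold change of -0.91, beside 12.2% and 10.8% of all genes tested. After adjustment edgeR called 0 of the 12 and DESeq2 called 5, all lower. *Spn*, encoding the sialomucin CD43, which E-selectin also binds, was lower with a log2 fold change of -1.48 (adjusted p = 0.104). The integrin genes that pair with the vessel ligands were chosen for mention after their values were seen. *Itgal* and *Itgb2*, the chains of LFA-1, which binds ICAM-1 and ICAM-2, had log2 fold changes of -1.23 and -1.03, and *Itga4*, of VLA-4, had -0.53. *Cd6*, the T cell receptor for ALCAM, and *Glg1*, the Golgi protein that E-selectin binds, had 0.27 and 0.02.

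Of the 10 enzymes that build selectin ligands, 9 were tested, and 3 had an unadjusted edgeR p under 0.05, all lower, beside 12.2% of all genes tested (list median -0.12). *Fut4*, a fucosyltransferase that finishes the sialyl Lewis X sugar, was at 2.47 ± 0.63 CPM in WT and 1.10 ± 0.60 CPM in *Tet2*-KO mice (SD, n = 6 each), which is -1.15 on the log2 scale (edgeR adjusted p = 0.110). *B4galt1*, a galactosyltransferase acting earlier on the same chain, had -0.66 (adjusted p = 0.167). *Fut7*, the main leukocyte enzyme of this step, failed the filter with 33 and 30 reads.

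Of 16 other vessel adhesion genes, 15 were tested, with 3 lower and 1 higher at an unadjusted edgeR p under 0.05 (list median -0.14), beside 12.2% and 10.8% of all genes tested. After adjustment edgeR and DESeq2 called 0 of them. *Ackr1*, which encodes an atypical chemokine receptor found on venular endothelium, was the higher one, at 26.3 ± 2.10 and 31.1 ± 3.83 CPM (SD, n = 6 each, log2 fold change 0.24, edgeR adjusted p = 0.132). Which cells of the brain held this RNA was not tested. *Aoc3*, encoding the adhesion protein VAP-1, was lower with a log2 fold change of -0.67 (adjusted p = 0.143). *Icam4* held 0 reads in all 12 mice.

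**Figure D4:**
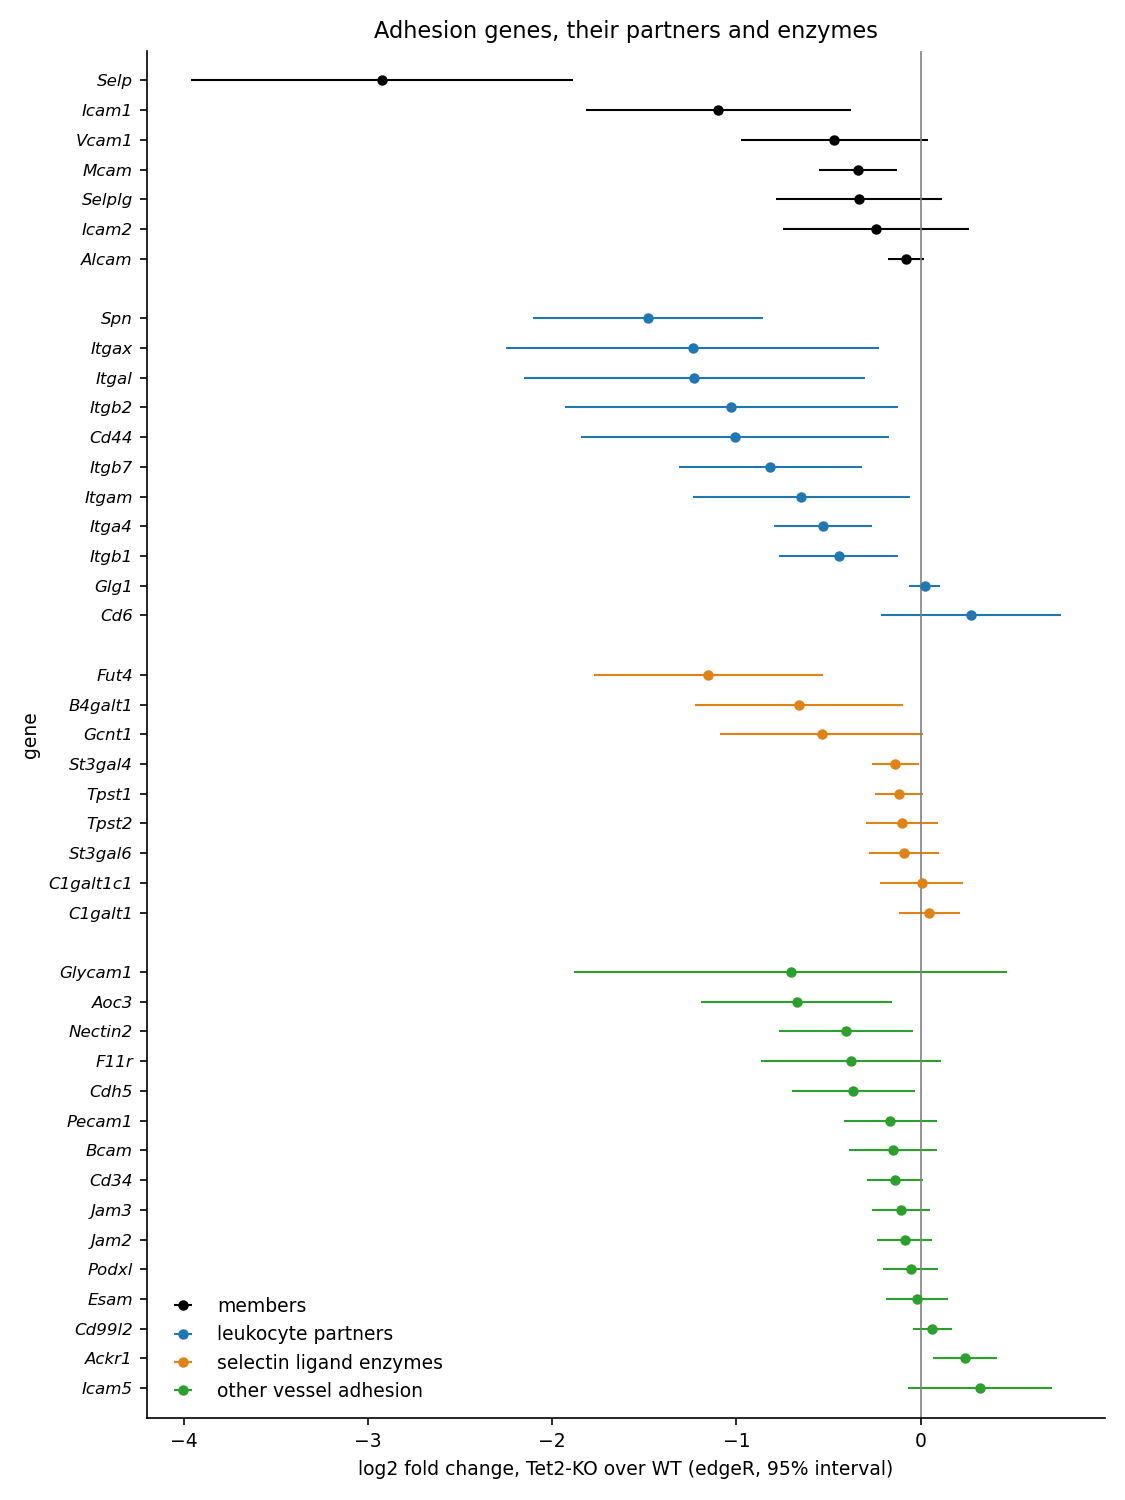
Log2 fold change of *Tet2*-KO over WT from edgeR with its 95% interval, for the 7 tested adhesion genes (black), leukocyte partners (blue), the enzymes of selectin ligands (orange) and other vessel adhesion genes (green). *Selp* at -2.92 lies farthest from 0, and *Spn* at -1.48 is next among the genes drawn.

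Over the 12 mice the 7 tested genes varied together to different degrees. The 12 mice share the difference between the groups and the spread in leukocyte marker levels, so the values are a description. Pearson's r of log2 CPM was 0.934 between *Icam1* and *Vcam1*, 0.886 between *Icam1* and *Selplg* and 0.882 between *Icam1* and *Selp*. *Icam2* had the lowest values, 0.232 to 0.494 with the other 6 genes.

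The genes most like each of them over the same 12 mice, by r of log2 CPM, were *Ube2c* and *Il1rn* for *Selp* (0.973 and 0.962), *Wipf1*, *Reep3* and *Vwa5a* for *Selplg* (0.983 to 0.984), and *AI427809*, *Fli1* and *H2-K1* for *Icam1* (0.990 to 0.993). They were *Oas1b*, *Ifit3* and *Rtp4* for *Vcam1* (0.974 to 0.976) and *Cux1*, *Serf2* and *Mid1ip1* for *Mcam* (0.945 to 0.956). *Alcam* and *Icam2* had looser company, with *Gm15283*, *Aldh1a3* and *Calhm5* at 0.894 to 0.911 and *Gm42466*, *Sinhcaf* and *Coasy* at 0.842 to 0.907.

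When single mice were left out, all 7 tested genes kept a negative log2 fold change in 12 of 12 fits. *Selp* ranged from -3.33 to -2.66 and *Icam1* from -1.30 to -0.93. *Mcam* ranged from -0.40 to -0.24, *Vcam1* from -0.60 to -0.34, *Selplg* from -0.44 to -0.20 and *Alcam* from -0.11 to -0.06. *Icam2* moved from -0.24 to -0.10 without WT replicate 3 and to -0.37 without WT replicate 5. Without *Tet2*-KO replicate 5 the edgeR test called 3 of the 8 genes that then passed the filter, *Selp*, *Sele* and *Icam1*. With WT replicate 2 and *Tet2*-KO replicate 5 both left out, the pair with the highest leukocyte marker levels of their groups, it called *Selp* alone (log2 fold change -3.19, adjusted p = 0.00508).

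**Figure D5:**
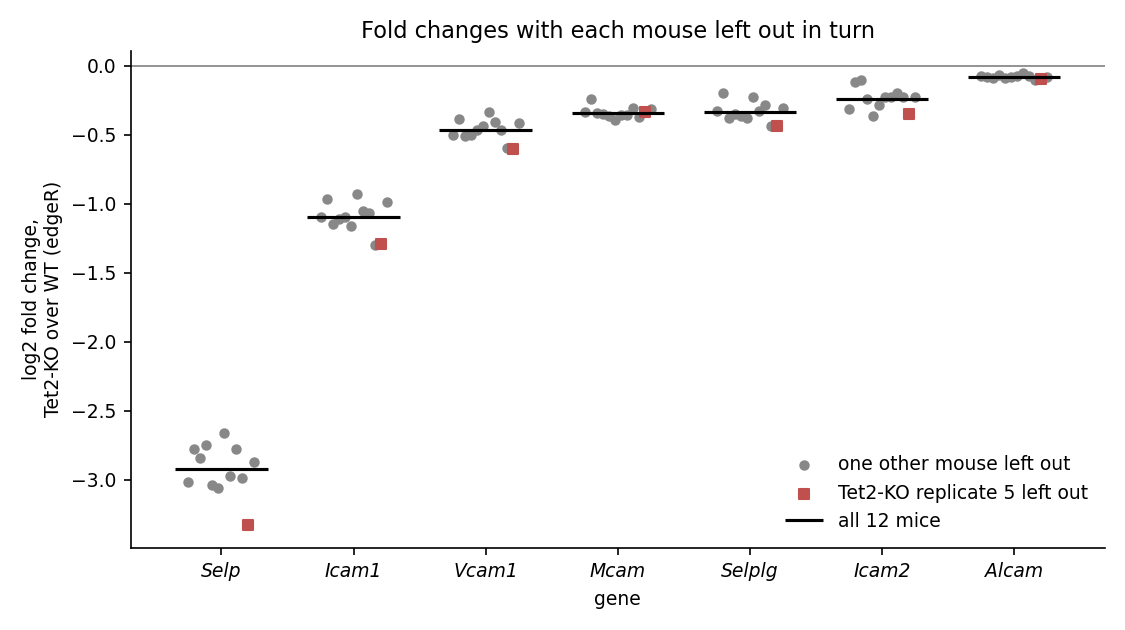
Log2 fold change of each of the 7 tested genes from edgeR with 1 mouse left out at a time (points; the red square is the fit without *Tet2*-KO replicate 5) and with all 12 mice (line). *Selp* stays between -3.33 and -2.66, and all points are below 0.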

How the data were processed

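RNA from the brains of 12 mice (1 library per mouse) was depleted of ribosomal RNA and sequenced as paired reads. According to the submitters' processing notes, reads were trimmed with Trimmomatic 0.36, aligned to mm10 with STAR 2.5.2b and counted with featureCounts (Subread 1.5.2). The authors deposited whole-number read counts per gene, without normalization, and only uniquely mapped reads within exons were included. Symbols and gene coordinates were taken from GENCODE M21 (GRCm38), and the promoter windows from RefSeq starts (GRCm38.p6).

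From these counts, R 4.3.3 and edgeR 4.0.16 gave log2 fold changes. Genes were kept by filterByExpr, scaled by TMM and tested with the quasi-likelihood F test over all 12 mice without covariates, with Benjamini-Hochberg adjustment over 20290 genes and a threshold of 0.05. DESeq2 1.42.0, limma-voom with sample quality weights (limma 3.58.1), other scalings and filters, a replicate block and mice left out were alternatives. The scripts were tested on simulated data. Single genes were tested by exact permutation on log2(CPM + 0.1), and ratios with 0.5 counts added. Genes named from the lists are the 2 with the smallest p in each list and those without reads, and for each tested gene the 3 most like it. The single values of 2 genes under this rule are not reported here. Members and lists were chosen with earlier results of these data known. Mice were treated as unpaired, since their values gave little sign of pairing by replicate number.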

Additional observations from a re-analysis of the deposited data

Results flagged for a closer look

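In 30 groups of 6 mice (levels of 9 genes and 6 ratios, each in both groups), 5 values, from 3 mice, stood far from the rest of their group, where chance alone flags about 1 group in 20. WT replicate 2 was the high mouse for *Selplg*, at 115 CPM where the other 5 were at 66.2 to 80.9 CPM. It was also high for *Icam1*, at 26.4 CPM with the others at 14.6 to 18.4 CPM, and for the ratio of *Selplg* to *Alcam* reads, at 0.599 with the others at 0.354 to 0.421. *Tet2*-KO replicate 5 had 1.96 CPM of *Icam2*, where the others had 1.14 to 1.31 CPM. *Tet2*-KO replicate 1 had a ratio of *Selplg* to *Selp* reads of 1240, where the others had 103 to 308; it held 620 *Selplg* reads and 0 *Selp* reads, so this value depends on the 0.5 counts added.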

How the results depend on the processing

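The number of genes called over the whole table, 5 in the main edgeR test, differed widely between alternatives. It was 898 with DESeq2 fitted without the edgeR filter (902 with genes without a count dropped first, an alternative added after seeing the data) and 1863 with limma-voom and sample quality weights on the filtered genes, so each of these fits differs from the main test in more than the tool. It was 44 without a filter and 0 with at least 10 counts in every library, where 4241 genes had an unadjusted p under 0.05. Leaving out single mice gave 0 to 2257 genes, with 2257 when *Tet2*-KO replicate 5 was absent and 13 when WT replicate 6 was, and it was 1554 with WT replicate 2 and *Tet2*-KO replicate 5 both left out, also added after seeing the data. Of the adhesion genes, 0 were called in the main test, 4 with DESeq2, 3 with DESeq2 after that drop (where *Sele* had no adjusted p), 3 with limma-voom, 1 with both mice left out and 0 to 3 with single mice left out. The cause was not tested. The tested adhesion genes kept a negative log2 fold change under each alternative that gave them a value. *Selp* has none with at least 10 counts in every library, where it failed that filter.

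Same-numbered mice of the groups had correlations of -0.17 to 0.23 in their deviations from the group means, and only those numbered 6 correlated best with their own number. These correlations gave little sign of pairing by number but cannot exclude it, since they reflect every source of spread between mice. With a replicate block, edgeR called 0 genes and 0 adhesion genes, and 4329 genes had an unadjusted p under 0.05.

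The ratio of *Selplg* to *Mcam* turned its sign, from -0.03 to 0.00242 without WT replicate 2 and to 0.119 without *Tet2*-KO replicate 1, within a range of -0.13 to 0.119. The difference of *Madcam1* did so too, from -0.16 to 0.0213 without WT replicate 2 and to 0.0171 without WT replicate 6, within a range of -0.402 to 0.0213. The ratios to *Selp* (2.35 to 3.07) and *Icam1* (0.79 to 0.99) passed 0.05 whichever mouse was left out. Depth limits *Selp*, *Sele*, *Icam2* and *Madcam1*, which held between 26 and 193 reads per group of 6 mice.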
